A study of Mus musculus with 2 samples.

Results

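Read depth along the genome of MIN6 cells was described for the 1 Mb bins of mouse chromosomes 1 to 19, in a CtBP2 ChIP library and in an input library. All 2482 such bins of build mm9 were members, of 2652 bins on the 21 nuclear chromosomes, and 2418 of them had a value. MIN6 is a line of pancreatic beta cells from an insulinoma of transgenic mice that express SV40 large T antigen from an insulin promoter. The labels give MIN6 cells for both libraries and name no treatment or further genotype. The ChIP library was precipitated with an antibody against CtBP2, a transcriptional co-repressor, and the input library had no antibody. Chromatin of both was fixed with formaldehyde and sheared by sonication. There was 1 library per group, so no difference below has a replicate check or a p-value, and the labels do not say whether both libraries came from the same culture.

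Tumour-derived lines often carry gains and losses of whole chromosomes or parts of them. Where a stretch has more or fewer copies than the rest of the genome, randomly sheared DNA gives more or fewer reads per kb there, in an input library and in the background of a ChIP library alike. Depth is a ratio to the typical bin and gives no copy number by itself. If most of the genome had 3 copies, a stretch with 2 would read 0.667, and if most had 4 copies, stretches with 3 and 5 would read 0.75 and 1.25. The ploidy of these cells was not measured here. Base composition and mappability of the bins were not measured here, so their part in the depth was not tested. Because no sequence or gene annotation of mm9 was used here, bins are named by chromosome and Mb, where 39 to 84 Mb means positions 39000001 to 84000000, and no genes are named.

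The value of a bin was the median number of distinct reads over its kept 10 kb bins, divided by the median over all 1 Mb bins of chromosomes 1 to 19. A distinct read is 1 read per chromosome, 5 prime end and strand. Kept 10 kb bins held at least 1 and fewer than 4200 deposited input lines and no 1 kb bin with 15 or more ChIP reads. A 10 kb bin with such a 1 kb bin is called ChIP-dense below. Chromosomes 1 to 19 held 11768639 distinct input reads and 8200858 distinct ChIP reads. The typical bin had 36 input reads and 10.5 ChIP reads per 10 kb, from a median of 92 kept 10 kb bins (quartiles 88 and 95). Because medians of whole counts move in steps, the finest step was 0.0139 in input and 0.0476 in ChIP. Of the 64 bins without a value, 56 lay in the first 3 Mb of a chromosome and 6 of the other 8 on chromosome 7.

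Most bins of chromosomes 1 to 19 lay close to the median in both libraries. The quartiles over bins were 0.889 and 1.14 in input and 0.952 and 1.05 in ChIP. The 5th and 95th percentiles were 0.694 and 1.38 in input and 0.762 and 1.24 in ChIP. Counting error was smaller than that spread. With means in place of medians, the values from plus-strand and minus-strand reads gave a standard deviation of 0.0153 for an input bin and 0.0270 for a ChIP bin, whereas differences between neighbouring bins gave 0.126 and 0.0904. Depth therefore varied from 1 Mb to the next by more than reads on opposite strands of the same bin did. Neighbouring bins were alike, with a Pearson correlation of 0.519 in input and 0.480 in ChIP between adjacent bins and of 0.152 and 0.161 between bins 10 apart.

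**Figure D1:**
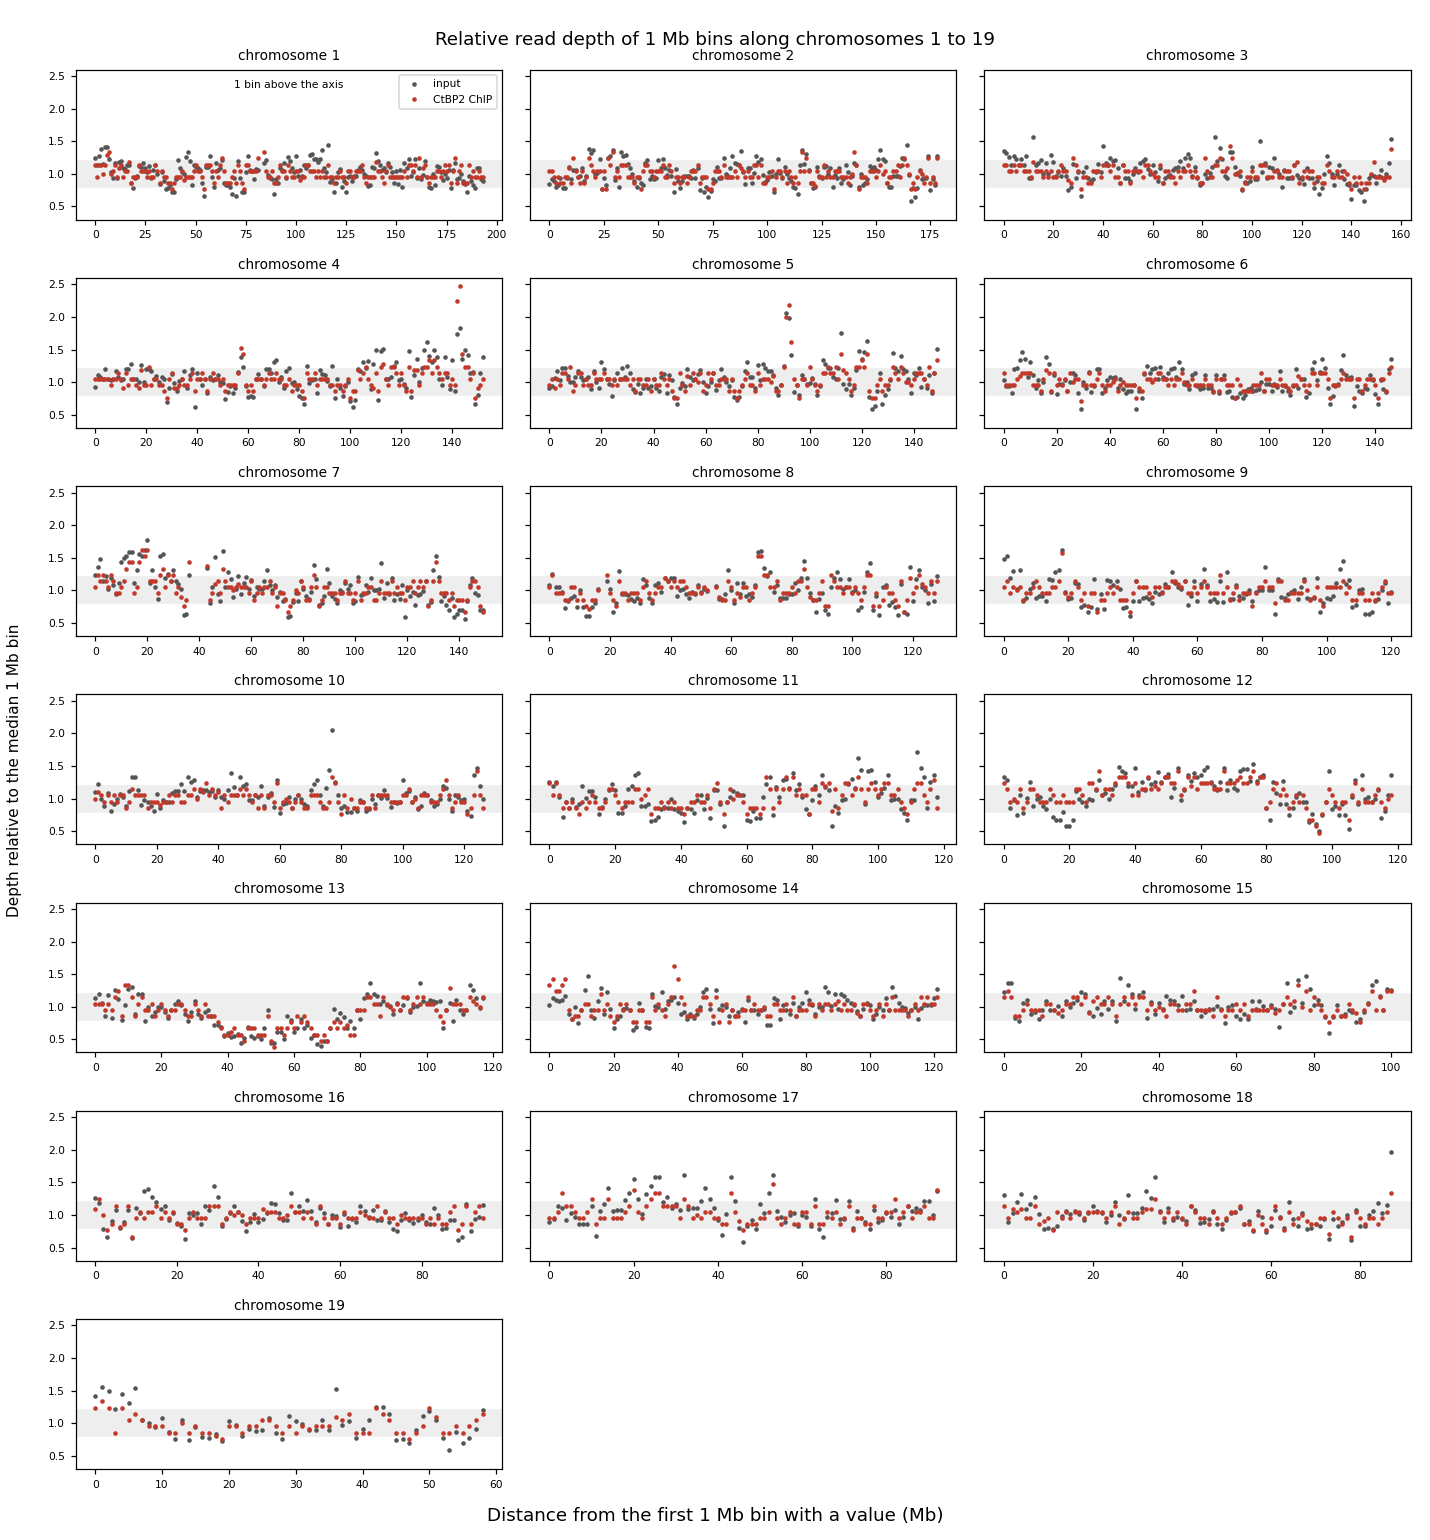
Depth of each 1 Mb bin with at least 20 kept 10 kb bins, relative to the median bin, against distance in Mb from the first bin with a value, for input (grey) and CtBP2 ChIP (red). The band spans 0.8 to 1.2. At positions 25 to 83 Mb of chromosome 12, 34 of 58 input points and 35 ChIP points lie at or above 1.2, and the others lie within the band. At positions 39 to 75 Mb of chromosome 13, 33 of 36 input points and 32 ChIP points lie at or below 0.8. On chromosome 1, 1 bin lies above the axis.

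A fixed fold of at least 1.2 or at most 0.8 was used to count bins that stood apart. In input, 402 of 2418 bins (16.6%) were at or above 1.2 and 285 (11.8%) at or below 0.8. In ChIP, 199 (8.23%) and 136 (5.62%) were. In both libraries at once, 146 bins (6.04%) were higher and 114 (4.71%) lower, and 1 bin was past the fold in opposite directions. That bin, at 56 to 57 Mb of chromosome 8, had 19 kept 10 kb bins and read 0.778 in input and 1.24 in ChIP. The 146 were 36.3% of the higher bins of input and 73.4% of those of ChIP, and the 114 were 40% and 83.8% of the lower bins. With all deposited reads in place of distinct reads, the balance turned, to 100 higher and 122 lower bins. With ChIP-dense 10 kb bins kept it went the other way, to 237 higher and 99 lower, and with 8 rather than 15 ChIP reads as the ChIP-dense limit it was 220 and 127. All these counts include values that lie exactly on the fold. The libraries share the cell line, the build and the kept bins, so their likeness is a description. Across 2411 bins with at least 20 kept 10 kb bins, Pearson's r was 0.786 and Spearman's rho 0.762.

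The lower bins were gathered on chromosome 13. That chromosome held 34 of the 114 bins that were lower in both libraries (29.8%), against 118 of all 2418 bins (4.88%). Chromosome 12 held 29 of the 146 higher bins (19.9%), against 119 of all bins (4.92%). Over all 19 chromosomes, 74 of 97 runs of consecutive higher bins and 58 of 73 runs of lower bins were 1 bin long. Such single bins were 74 of the 146 higher bins and 58 of the 114 lower bins. The 5 runs of 3 or more lower bins were 4 on chromosome 13 and 1 on chromosome 12, at 96 to 101 Mb. The 13 runs of 3 or more higher bins lay on chromosomes 4, 5, 7, 8, 12, 17 and 19, and the longest, of 8 bins, was at 75 to 83 Mb of chromosome 12.

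Taken as whole chromosomes, the autosomes differed little. Medians over bins ran from 0.917 on chromosome 13 to 1.08 on chromosome 12 in input, and from 0.952 to 1.14, the latter on chromosome 12, in ChIP. The quartile ranges of all 19 autosomes overlapped in each library, the highest lower quartile being 0.944 and the lowest upper quartile 1.06 in input. Chromosome 13 had the widest spread toward low depth, with a lower quartile of 0.684 in input and 0.667 in ChIP. Chromosome 12 had the highest upper quartile, 1.27 in input and 1.24 in ChIP. No autosome as a whole was past the fold in either library. Chromosome X, computed the same way, had a median of 0.806 (quartiles 0.663 and 0.944) in input and 0.667 (0.571 and 0.762) in ChIP. With means over 10 kb bins in place of medians, chromosome 13 read 0.915 in input and 0.928 in ChIP, and chromosome X 0.901 and 0.741. Its upper quartile in ChIP lay below the lower quartile of 18 of the 19 autosomes, chromosome 13 being the exception, and in input it lay below that of 0 of them. Single bins of X went past the autosomal extremes among bins with at least 50 kept 10 kb bins, with 0.264 in input at 135 to 136 Mb and 2.31 at 121 to 122 Mb.

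**Figure D2:**
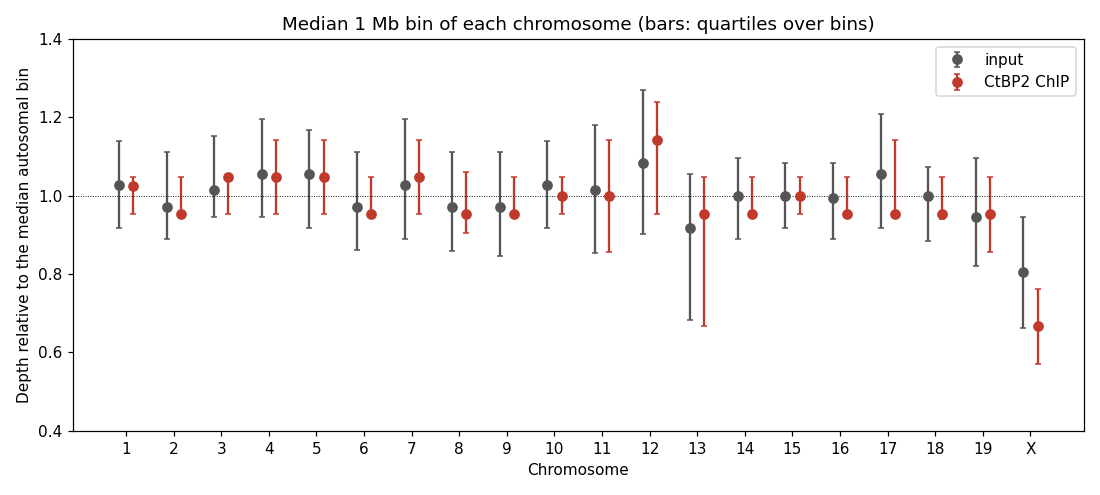
Median relative depth of the 1 Mb bins of each chromosome in input (grey) and CtBP2 ChIP (red), with bars from the lower to the upper quartile over bins. Chromosomes 1 to 19 all sit near 1, between 0.917 and 1.14, with long bars on chromosomes 12 and 13, and chromosome X sits lower, at 0.806 in input and 0.667 in ChIP.

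To find stretches, each chromosome was divided into segments of at least 3 bins from the input values, and ChIP was then read over the same bins. ChIP reads entered the division through the ChIP-dense 10 kb bins that were left out. The 19 autosomes gave 38 segments, and 9 chromosomes stayed whole. The median input depth was past the fold in 11 segments, 7 higher and 4 lower. ChIP was also past the fold, in the same direction, in 4 of the 11: 58 bins of chromosome 12, 36 bins of chromosome 13, 3 bins of chromosome 5 and 7 bins of chromosome 19. With ChIP-dense 10 kb bins kept, 19 segments were past the fold in input, 15 higher and 4 lower, and 15 of them also in ChIP. With all deposited reads, 8 were past it, 3 higher and 5 lower, and those also past it in ChIP were 1 higher and 3 lower, against 3 and 1. Among the 27 segments not past the fold in input, ChIP was past it in 1, the 9 bins at 75 to 84 Mb of chromosome 13 that border the lower segment there. For comparison, 8.23% of single bins were past the fold upward in ChIP and 5.62% downward.

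The stretch of low depth on chromosome 13 was the longest that was lower in both libraries. The segment at 39 to 75 Mb had a median depth of 0.576 (quartiles 0.521 and 0.684) in input and 0.667 (0.571 and 0.667) in ChIP over 36 bins, of which 33 were at or below 0.8 in input and 32 in ChIP. The segment from 75 to 84 Mb that followed had 0.806 in input and 0.714 in ChIP over 9 bins. Joined after their values were seen, the segments spanned 45 Mb, and all 45 bins were below 1 in both libraries. Over these 45 bins the input median was 0.611, with 0.403 as the lowest and 0.972 as the highest bin. The ChIP median was 0.667, from 0.381 to 0.952. In reads, the median bin held 22 input and 7 ChIP reads per 10 kb, against 35 and 10 before the stretch and 38 and 11 after it.

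Pooled read rates on chromosome 13 gave the same order with narrow counting intervals. From 39 to 84 Mb there were 27.9 input reads per kept 10 kb bin (95% Poisson interval 27.7 to 28.1) and 7.78 ChIP reads (7.69 to 7.86). Before 39 Mb the rates were 42.7 (42.5 to 42.9) and 11.3 (11.2 to 11.5). After 84 Mb they were 43.1 (42.9 to 43.4) and 11.5 (11.4 to 11.6). These intervals cover counting error only and leave out the variation between neighbouring bins, which was larger. Amplified reads without molecular identifiers are also not independent molecules. The sides were alike and the middle stood below them in both libraries.

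Depth inside the chromosome 13 stretch was uneven, and the libraries followed each other in part. It came down over several Mb at the left side: input read 0.861, 0.722, 0.722, 0.694 and 0.556 in the 5 bins from 38 to 43 Mb, and ChIP read 0.857, 0.857, 0.762, 0.667 and 0.571. Blocks of 5 Mb had input medians of 0.556 at 45 to 50 Mb and at 50 to 55 Mb, 0.667 at 60 to 65 Mb and 0.472 at 70 to 75 Mb, where ChIP had 0.571, 0.571, 0.667 and 0.571. The libraries parted more at 75 to 80 Mb, with 0.847 in input and 0.714 in ChIP. The bin at 61 to 62 Mb had 0.861 and 0.667. The bin at 55 to 56 Mb was high, at 0.944 in input and 0.857 in ChIP, and held 32 ChIP-dense 10 kb bins against a median of 7 in the stretch. Against bins with a like number of them it read 0.773 and 0.750. At the right side, input went from 0.667 at 81 to 82 Mb to 0.944, 0.806 and 1.14 in the next 3 bins, and ChIP from 0.571 to 0.952, 0.952 and 0.952. Across the 45 bins Pearson's r between the libraries was 0.728 and Spearman's rho 0.760, against 0.786 and 0.762 over all 2411 bins.

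Chromosome 13 also supplied nearly all of the lowest bins of chromosomes 1 to 19. Among their 2392 bins with at least 50 kept 10 kb bins, 9 of the 10 lowest in input lay between 47 and 74 Mb of chromosome 13, and the other at 99 to 100 Mb of chromosome 12. The lowest was at 71 to 72 Mb of chromosome 13, at 0.403 in input (14.5 reads per 10 kb) and 0.476 in ChIP (5 reads). The bin at 57 to 58 Mb had 0.444 in input and the lowest ChIP value of these 10, 0.381. In ChIP these 10 bins ran from 0.381 to 0.571, so each was also low there. They held 90 to 99 kept 10 kb bins and none was thinly filled.

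The long stretch of high depth was on chromosome 12. The segment at 25 to 83 Mb had a median of 1.25 (quartiles 1.14 and 1.37) in input and 1.24 (1.14 and 1.33) in ChIP over 58 bins. Input was at or above 1.2 in 34 of these bins and ChIP in 35, and none was at or below 0.8 in either library. The ChIP median was below the fold, at 1.18, with means over 10 kb bins and also with ChIP-dense 10 kb bins kept. Input was above 1 in 51 bins and ChIP in 57. The lowest and highest bins were 0.889 and 1.53 in input and 0.952 and 1.43 in ChIP. Pooled rates were 50.4 input reads per kept 10 kb bin (50.2 to 50.6) and 13.3 ChIP reads (13.2 to 13.4), against 38 (37.8 to 38.2) and 10.5 (10.4 to 10.6) after 83 Mb.

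The sides of the chromosome 12 stretch differed in shape. On the left, input depth stepped up from a median of 0.667 at 18 to 25 Mb and then climbed by degrees, while ChIP differed less. The 5 Mb blocks from 25 to 50 Mb had input medians of 1.00, 1.08, 1.21, 1.19 and 1.25 and ChIP medians of 1.14, 1.14, 1.24, 1.24 and 1.14. On the right, the end was abrupt. The bins at 81 to 82 and 82 to 83 Mb had 1.33 and 1.36 in input and 1.33 in ChIP in each, and the bin at 83 to 84 Mb had 0.861 and 0.857. A step fitted to 10 kb counts within 2 Mb began at position 83010001 in input and at 83160001 in ChIP, 150 kb apart. Depth around it went from 1.28 to 0.763 in input and from 1.32 to 0.839 in ChIP, on the scale of mean reads per 10 kb.

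Chromosome 12 further held a short stretch of low depth at 96 to 101 Mb. Its 5 bins read 0.639, 0.764, 0.611, 0.5 and 0.750 in input and 0.667, 0.667, 0.571, 0.476 and 0.762 in ChIP. The bins on its sides, at 95 to 96 and 101 to 102 Mb, read 0.944 each in input and 0.857 and 0.952 in ChIP. All 5 bins were thus below both neighbours in both libraries. The input segments did not separate this stretch. Segments made from mean-based ChIP values, an alternative added after the values were seen, did. They gave it a ChIP median of 0.680 and an input median of 0.639. Among those segments the high stretch of chromosome 12, there at 29 to 83 Mb, read 1.19 in ChIP, below the fold. A segment each of chromosomes 4, 5 and 13 was past the fold in both libraries. That at 84 to 88 Mb of chromosome 1 was past it in ChIP only. So were those at 3 to 9 and 42 to 45 Mb of chromosome 14.

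**Figure D3:**
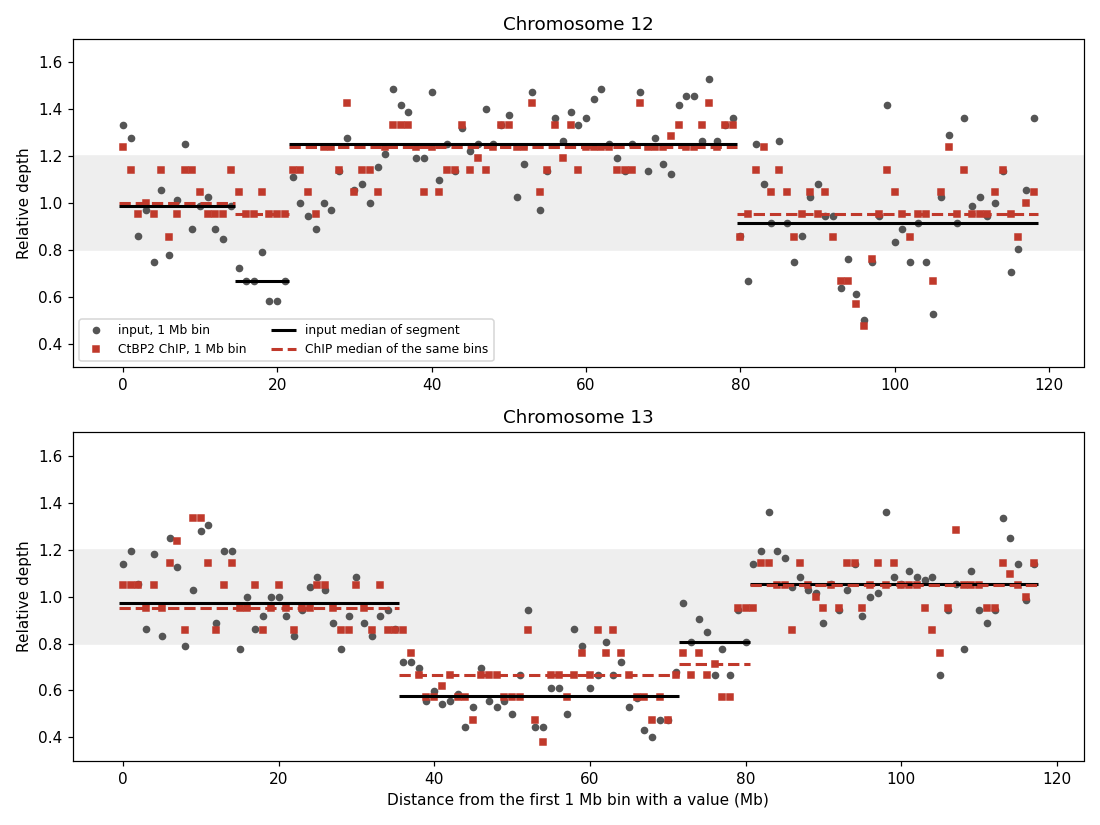
Relative depth of each 1 Mb bin of chromosomes 12 and 13 in input (grey circles) and CtBP2 ChIP (red squares), against distance in Mb from the first bin with a value, with the input median of each input segment (black line) and the ChIP median of the same bins (dashed red line). The lines of both libraries stand at 1.25 and 1.24 over the 58-bin segment of chromosome 12 and at 0.576 and 0.667 over the 36-bin segment of chromosome 13, and they part over 7 bins near the start of chromosome 12.

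The remaining segments past the fold in both libraries were short. On chromosome 5, the bins at 94 to 95, 95 to 96 and 96 to 97 Mb read 2.06, 1.99 and 1.42 in input and 2, 2.19 and 1.62 in ChIP, with 1.25 and 1.24 in the bin before and 0.847 and 1.05 in the bin after. The first and second of these were the highest in input among the 2392 bins of chromosomes 1 to 19 with at least 50 kept 10 kb bins. With all deposited reads the ChIP median of the 3 bins was 1.41 rather than 2. On chromosome 19, 7 bins at 3 to 10 Mb had medians of 1.44 in input and 1.24 in ChIP. Its ChIP median was below the fold, at 1.12, with all deposited reads, and with ChIP-dense 10 kb bins kept the medians were 1.74 and 1.59. Among the 10 highest bins in input were also 145 to 146 and 146 to 147 Mb of chromosome 4, with 1.74 and 1.83 in input and more in ChIP, 2.24 and 2.48. The bin at 90 to 91 Mb of chromosome 18 was the reverse, at 1.97 in input and 1.33 in ChIP. The bin at 23 to 24 Mb of chromosome 7 had 1.78 and 1.62. The remaining 4 of the 10 highest, on chromosomes 5 (115 and 125 Mb), 11 (115 Mb) and 9 (21 Mb), had 1.63 to 1.75 in input and 1.24 to 1.57 in ChIP, and held 32 to 48 ChIP-dense 10 kb bins each.

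Bins with many ChIP-dense 10 kb bins had higher depth although those 10 kb bins were left out of the value. The 246 bins with 20 or more ChIP-dense 10 kb bins had medians of 1.22 in input and 1.14 in ChIP, whereas the 943 bins with 5 to 9 had 0.972 and 0.952. These 246 bins were 10.2% of all bins but 74 of the 146 bins (50.7%) that were higher in both libraries, and 0 of the 114 that were lower. Against bins with a like number of ChIP-dense 10 kb bins, an alternative added after the values were seen, the chromosome 19 segment moved from 1.44 to 1.23 in input and from 1.24 to 1.08 in ChIP. It had a median of 32 ChIP-dense 10 kb bins per Mb. The 50-bin segment of chromosome 4 at 106 to 156 Mb, with 20 per Mb, moved from 1.22 to 1.03 in input and from 1.14 to 1.02 in ChIP.

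The stretches on chromosomes 12, 13 and 5 could move little under that comparison. Their segments had medians of 7, 7 and 5 ChIP-dense 10 kb bins per Mb. Bins with 5 to 9 of them had medians of 0.972 in input and 0.952 in ChIP, close to 1. The ChIP-dense number also comes from the same ChIP reads, so the comparison is no separate check on these stretches. On chromosome 12 the values against like bins were 1.25 in input and 1.24 in ChIP, on chromosome 13 (39 to 75 Mb) 0.583 and 0.636, and on chromosome 5 2.04 and 2.10. Joined over 39 to 84 Mb, chromosome 13 had 0.629 and 0.650.

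**Figure D4:**
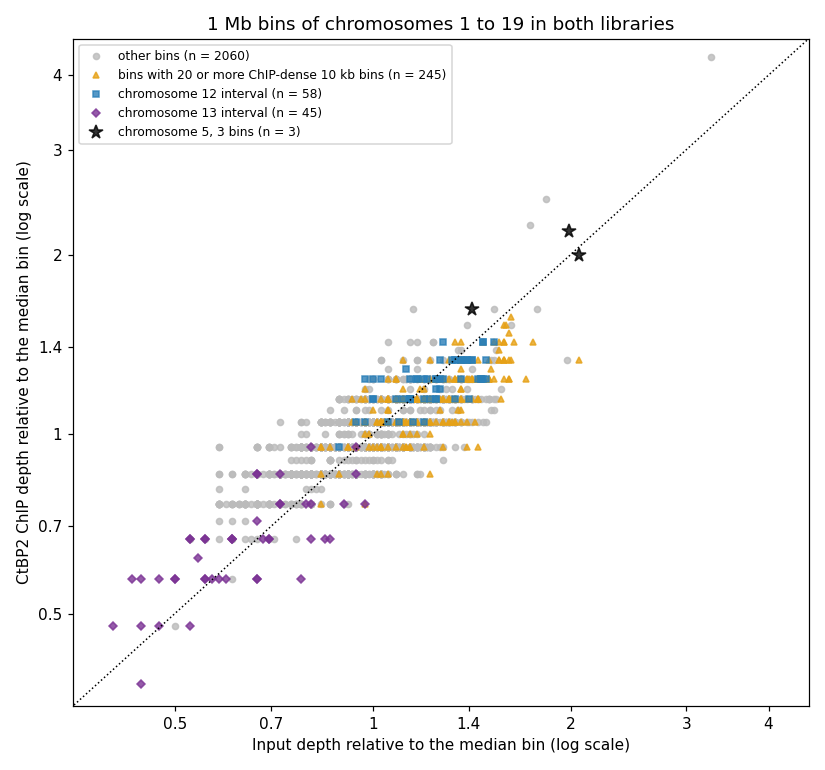
Each point is a 1 Mb bin with at least 20 kept 10 kb bins, with input depth across and CtBP2 ChIP depth up, both relative to the median bin on log axes, and a dotted line where they are equal. The 45 bins of chromosome 13 (39 to 84 Mb, diamonds) lie toward the low corner. Of the 58 bins of chromosome 12 (25 to 83 Mb, squares), 51 lie above 1 in input and 57 in ChIP. Many bins with 20 or more ChIP-dense 10 kb bins (triangles) lie to the high side on the input axis.

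In the other 7 segments past the fold in input, ChIP was not past it. The widest gap was on chromosome 12 at 18 to 25 Mb, where 7 of 7 input bins were at or below 0.8 (median 0.667) while ChIP stayed at 0.952 and 0 of 7 ChIP bins were. At 3 to 9 Mb of chromosome 9 input had 1.3 and ChIP 1.05. At 3 to 35 Mb of chromosome 7 the medians were 1.28 and 1.14, and at 136 to 153 Mb of the same chromosome 0.778 and 0.857. At 16 to 42 Mb of chromosome 17 they were 1.23 and 1.1, at 103 to 106 Mb of chromosome 4 0.708 and 0.857, and at 106 to 156 Mb 1.22 and 1.14. In all 7, the ChIP median lay on the same side of 1 as the input median and closer to it. On chromosome 12 at 18 to 25 Mb and on chromosome 9, however, it equalled a ChIP quartile over all bins, 0.952 or 1.05. Its side of 1 there is no likeness to input, because the finest ChIP step was 0.0476. Across all 38 segments Pearson's r between the libraries was 0.922.

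**Figure D5:**
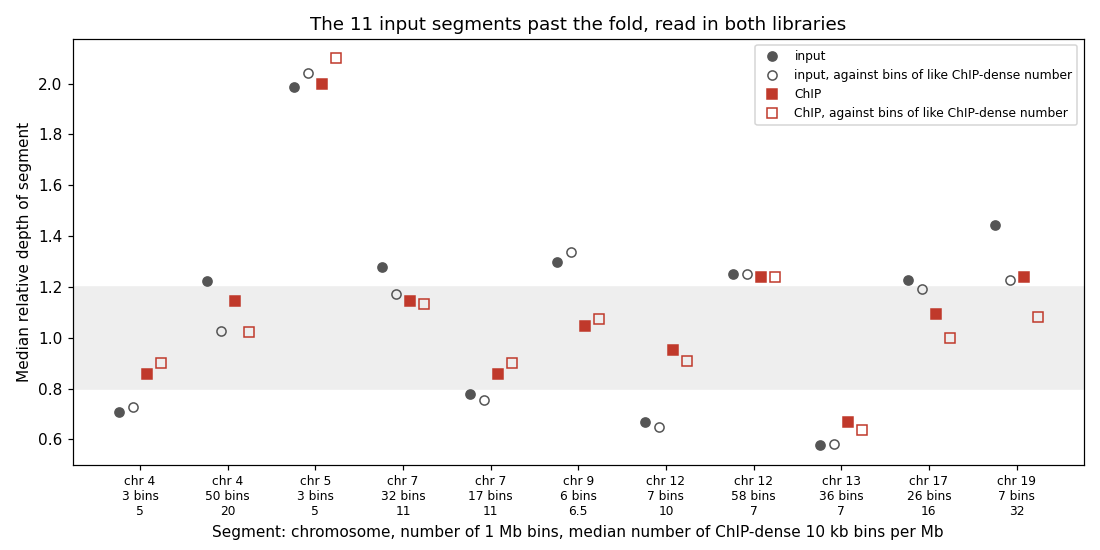
Median relative depth of the 11 input segments past the fold, in input (circles) and in ChIP over the same bins (squares), filled against all bins and open against bins with a like number of ChIP-dense 10 kb bins. Labels give the chromosome, the number of 1 Mb bins and the median number of ChIP-dense 10 kb bins per Mb, and the band spans 0.8 to 1.2. All 4 marks lie outside the band for the 3-bin segment of chromosome 5, the 58-bin segment of chromosome 12 and the 36-bin segment of chromosome 13.

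Between neighbouring segments, 17 steps of at least 0.2 in input depth were found, and in all 17 the ChIP medians of the segments differed in the same direction. At 18 Mb of chromosome 12, 75 Mb of chromosome 13 and 16 Mb of chromosome 17, however, they differed only by the finest ChIP step, 0.0476. The segment medians alone therefore do not settle the ChIP direction there. At 18 Mb of chromosome 12 the ChIP medians of the 5 bins before and the 5 bins after were both 0.952. When 1 step was fitted to 10 kb counts of each library separately, the positions were 10 to 1550 kb apart, with a median of 160 kb, and 5 of the 17 lay within 100 kb. The closest pair was on chromosome 4, at position 105840001 in input and 105850001 in ChIP, where depth went from 0.668 to 1.07 and from 0.808 to 1.16. Steps on chromosome 7 at 135130001 and 135160001, and at 36600001 and 36550001, followed. In 2 of the 17 the fitted local steps went opposite ways in the libraries, at the left side of the chromosome 13 stretch and at 18 Mb of chromosome 12, and their positions, 1030 and 1550 kb apart, are not placed by these fits. Counts capped at 3 times the typical bin, added after the values were seen, gave 15 steps in the same direction and 5 within 100 kb as well.

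Smoothing left mainly chromosomes 12 and 13. With a running median over 11 bins, chosen after the values were seen, 86 bins were past the fold in both libraries, and 76 of them (88.4%) lay on these chromosomes: on chromosome 12, 34 bins at 50 to 84 Mb and 4 bins at 40 to 44 Mb, and on chromosome 13, 38 bins at 40 to 78 Mb. The other bins were 8 on chromosome 7, at 17 to 22 and 24 to 27 Mb, and 2 on chromosome 19. Smoothed depth on chromosome 13 reached down to 0.528 in input and 0.571 in ChIP. Smoothed depth on chromosomes 14 and 16 stayed between 0.861 and 1.11 in input, although ChIP reached 1.33 on chromosome 14.

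The extreme values of the whole set came from thinly filled bins. Of the 2418 bins, 26 had fewer than 50 kept 10 kb bins, and these ran from 0.0833 to 5.26 in input. The lowest, at 2 to 3 Mb of chromosome 9, rested on 1 kept 10 kb bin, and the highest, at 20 to 21 Mb of chromosome 8, on 2. The bin at 85 to 86 Mb of chromosome 1 had 26 kept 10 kb bins and read 3.26 in input and 4.29 in ChIP. The sources used here do not give the treatment of reads that match more than 1 place.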

How the data were processed

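The authors deposited aligned reads of 1 ChIP and 1 input library, 1 line per read, with raw counts of 1 per line and no normalization. The deposited score column is 0 on every line and was not used, and the other kind of deposited unit is position in bp. Per the submitters' processing notes, BWA (no version), SAMtools 0.1.19, bedtools 2.17.0 and build mm9 were used. Settings are not given in the sources used here. The ChIP file held 34890624 and the input file 20896067 lines, and 24.3% and 59.9% of lines on nuclear chromosomes were distinct.

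Reads were assigned to bins by their 5 prime end with Python 3.11.15, NumPy 2.4.6, pandas 2.3.3 and SciPy 1.17.1. Segments came from least-squares partitioning of log2 relative input depth, with bins of at least 20 kept 10 kb bins and a penalty of 25 times the squared noise. Simulated bins with planted segments were used to try the method. Their noise was independent, whereas neighbouring bins here were correlated, and false segments were not counted. The simulation is thus no check on the segments found here. Steps were fitted by Poisson likelihood. The text names each chromosome, each segment past the fold, the bins among the 10 highest and 10 lowest that the results turn on, and selected steps of at least 0.2. The bins, limits and comparisons were chosen with earlier results of these data known. Figures used matplotlib 3.10.9. No genes were named because no annotation of mm9 was used here. A ChIP with control IgG, named in the labels' protocol, was not analysed here.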

Additional observations from a re-analysis of the deposited data

How the results depend on the processing

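No paired analysis was possible because the ChIP and the input group hold a single library each, and none could be left out. Counts outside 1.5 times the main value were as follows. Against 687 input, 335 ChIP and 260 shared bins past the fold, a fold of 1.3 or 0.7 gave 353, 126 and 103, a fold of 1.1 or 0.9 gave 1434, 1021 and 801, and the running median, added later, gave 232, 103 and 86. Plus-strand reads alone gave 1095 ChIP and 527 shared bins, and a ChIP-dense limit of 8 gave 557 ChIP bins. Against 11 input segments past the fold, 19 were found with ChIP-dense bins kept and 4 at the stricter fold. A penalty of 12.5 gave 35 and a penalty of 50 gave 5. Segments made from ChIP, added later, gave 7 past the fold in ChIP, which is a different measure. Against the 4 input segments past the fold in both libraries, 15 were found with ChIP-dense bins kept and 12 with plus-strand reads. The stricter fold gave 2, the looser fold 10 and the penalty of 12.5 gave 12. The cause was not tested. Over the other read, bin and centre settings, the stretch at 39 to 84 Mb of chromosome 13 ran from 0.610 to 0.645 in input and 0.588 to 0.7 in ChIP, and that at 25 to 83 Mb of chromosome 12 from 1.2 to 1.28 and 1.18 to 1.3. The stretch at 3 to 10 Mb of chromosome 19 ran from 1.23 to 1.74 and 1.08 to 1.59, and the 3 bins of chromosome 5 from 1.80 to 2.08 and 1.41 to 2.1. Of 171 chromosome medians recomputed in each library, 2 in input and 31 in ChIP left the 95% interval of the median over bins, and the largest move was 0.0770. With 10.5 ChIP reads in a typical 10 kb bin, ChIP values of single bins move in steps of 0.0476.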
